A study of Mus musculus with 30 samples.

Results

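The transcripts described here are 10 genes that mark macrophages in the mouse heart: Csf1r, Adgre1, Cd68, Mrc1, Cd163, Lyve1, Folr2, Timd4, Trem2 and Gpnmb. They were taken from the deposited count table by their GENCODE symbols, and all 10 were found among its 55487 gene identifiers. Poly(A) RNA was counted in 30 heart samples collected 8 weeks after sham surgery or transverse aortic constriction (TAC). In TAC a clip on the aorta raises the pressure the heart pumps against. The study's question was what cardiac Cpt1a, the enzyme that lets long-chain fatty acids enter mitochondria, does under that load. In the floxed cohort, mice with floxed Cpt1a alleles had sham surgery (FF_sham) or TAC (FF_TAC), and mice with a cardiac-specific Cpt1a knockout (the design text writes knockdown) had sham surgery (KO_sham) or TAC (KO_TAC), with 4 libraries in each group. In the AAV9 cohort, C57Bl/6 mice were given saline and then sham surgery (PBS_sham) or TAC (PBS_TAC), with 3 libraries each. Others of that cohort were given an AAV9 vector carrying Cpt1a behind the cardiac troponin T promoter, which is active in heart muscle cells, before sham surgery (AAV_sham) or TAC (AAV_TAC), with 4 libraries each. The controls of that cohort had saline and not an empty vector. Ages, the Cre driver of the knockout and which mouse had which of the clip sizes are not given in the sources used here. For KO_TAC the sample titles mix TAC with sham, so the genotype label, treatment label and column names, which give knockout and TAC, were followed. The labels do not state that each library is a separate animal, so p-values measure the spread between these samples.

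Macrophages of the heart clear dying cells and debris, take up haemoglobin and iron, and release growth factors that act on muscle, vessels and fibroblasts. Csf1r, the receptor for the survival factors Csf1 and Il34, Adgre1 (the F4/80 antigen) and Cd68, a lysosomal membrane glycoprotein, are carried by most of these cells. Timd4, Lyve1 and Folr2 mark resident cells that renew themselves with little input from blood monocytes, Mrc1 (the mannose receptor) and Cd163 (the haemoglobin scavenger receptor) are high in resident and repair-type cells, and Trem2, a lipid-sensing receptor, and Gpnmb, a membrane glycoprotein of endosomes and lysosomes, are known from macrophages filled with lipid or debris.

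Promoter sequence was matched for 7 of the 10 genes, in 8 windows. The 250 bases before the RefSeq start are printed for Cd68 and Gpnmb, the genes called between KO_TAC and FF_TAC hearts below, for Trem2, which is grouped with Gpnmb as a lipid-associated gene, and for Timd4 as the marker of resident cells. No base of these 4 windows lies in an annotated exon. Capitals mark a match to 1 of 4 motifs searched on both strands: GAGGAA, the core bound by PU.1, TGANTCA, bound by AP-1, CATGTG, the core of the M-box bound by MITF-family factors, and CACGTG, the core of the CLEAR element of lysosomal genes.
Cd68 promoter, GRCm38.p6 chr11:69666171-69666420, minus strand: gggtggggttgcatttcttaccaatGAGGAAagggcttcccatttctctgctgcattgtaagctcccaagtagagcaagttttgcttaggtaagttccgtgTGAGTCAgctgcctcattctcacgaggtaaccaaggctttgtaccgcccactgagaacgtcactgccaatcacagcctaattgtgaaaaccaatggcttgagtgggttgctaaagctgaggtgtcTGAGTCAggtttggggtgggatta
Gpnmb promoter, GRCm38.p6 chr6:49036268-49036517, plus strand: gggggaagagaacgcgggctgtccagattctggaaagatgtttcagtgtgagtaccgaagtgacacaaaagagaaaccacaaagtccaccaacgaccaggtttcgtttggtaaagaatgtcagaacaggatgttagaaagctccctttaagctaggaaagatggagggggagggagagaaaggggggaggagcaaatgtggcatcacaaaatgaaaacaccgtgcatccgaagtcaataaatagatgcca
Trem2 promoter, GRCm38.p6 chr17:48346151-48346400, plus strand: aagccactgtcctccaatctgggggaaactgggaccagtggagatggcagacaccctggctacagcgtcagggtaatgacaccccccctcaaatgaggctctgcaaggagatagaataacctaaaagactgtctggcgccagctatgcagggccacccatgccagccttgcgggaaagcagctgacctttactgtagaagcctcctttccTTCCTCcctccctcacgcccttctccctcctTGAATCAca
Timd4 promoter, GRCm38.p6 chr11:46810549-46810798, plus strand: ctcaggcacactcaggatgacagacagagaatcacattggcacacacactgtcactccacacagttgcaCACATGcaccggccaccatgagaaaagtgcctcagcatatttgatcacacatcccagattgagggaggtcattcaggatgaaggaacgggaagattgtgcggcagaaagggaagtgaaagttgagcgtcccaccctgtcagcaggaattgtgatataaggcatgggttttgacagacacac
Over 32851 RefSeq windows of the same length, GAGGAA was held by 23.3%, TGANTCA by 6.75%, CATGTG by 12.3% and CACGTG by 6.02%. Cd68 held GAGGAA at -225 and TGAGTCA at -149 and -24 from the start, and Trem2 held the PU.1 core on the reverse strand at -40 and TGAATCA at -9. Timd4 held only the M-box core, on the reverse strand at -181. None of the 4 motifs was found in the Gpnmb window. A match describes the letters and is not evidence of binding.

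Total counts ran from 14839758 to 22070373 per library. The libraries were not uniform within groups. In 7 of them, those labelled FF_TAC 2, FF_TAC 3, KO_sham 2 and all 4 KO_TAC, summed haemoglobin transcripts were 1.40 to 51.1 CPM (counts relative to the library's total), while the other 23 had 293.9 to 943 CPM. The mean log2 CPM of 12 early response genes was 7.10 to 8.89 in these 7 hearts, 3.66 to 4.22 among the remaining 9 floxed ones and 4.81 to 6.14 in AAV9 cohort hearts. Every KO_TAC library is of this haemoglobin-low kind, so comparisons of KO_TAC are also given with a term for it where that term ended a call or moved an estimate printed for the 10 genes by over 1.5 times. Cpt1a itself was at 46.1 ± 6.17 CPM in FF_sham, 30.6 ± 15.3 in FF_TAC, 28.8 ± 12.0 in KO_sham and 14.2 ± 4.02 in KO_TAC (SD, n = 4). The library labelled KO_sham 2 had 46.7 CPM of Cpt1a, as high as the floxed sham hearts, while those labelled FF_TAC 2 and FF_TAC 3 had 20.7 and 16.5 CPM. The Cpt1a levels of these 3 libraries go against their labels. The labels were kept, every comparison of knockout with floxed hearts rests on them, and whether labels were exchanged was not tested. The library PBS_sham 3 stood apart in the other cohort, with a normalisation factor of 1.53 against 0.883 to 1.11 in the other 29, and 18836 CPM of 5 cardiomyocyte transcripts against 34570 to 51862. Atrial transcripts varied widely inside groups, Myl7 running from 0.121 to 3188 CPM within KO_TAC. The part of these differences in the results below was not tested except where a value is given.

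All 10 genes were detected in every library, the fewest counts in any being 17, for Gpnmb, and all 10 passed the filter on low counts in both cohorts. Divided by exon length, the median level over the 30 hearts was highest for Csf1r, at 7.87 CPM per kilobase, followed by Cd68 at 6.88, Lyve1 at 6.22, Mrc1 at 4.12, Adgre1 at 3.79, Cd163 at 2.81 and Folr2 at 2.37. Timd4 (1.07), Trem2 (0.510) and Gpnmb (0.366 CPM per kilobase) were the scarcest. Timd4 (ENSMUSG00000055546) lies at chr11:46810800-46844332 and Trem2 (ENSMUSG00000023992) at chr17:48346401-48354147 on GRCm38. The ranges over libraries of every 2 neighbours in this order overlapped. Across hearts the level of Csf1r moved least, 2.48-fold from lowest to highest library, and that of Timd4 most, 10.95-fold. Csf1r (ENSMUSG00000024621), on chromosome 18, shares 873 exonic bases with Hmgxb3 on the opposite strand, and Folr2 (ENSMUSG00000032725, chr7:101839988-101857194) shares 975 with Gm10602. The strand setting of the counting is not given in the sources used here, so the values of Csf1r and Folr2 are uncertain to that extent. As heart tissue and not isolated cells was sequenced, more macrophages and more RNA of a gene per macrophage cannot be told apart in any value that follows.

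**Figure D1:**
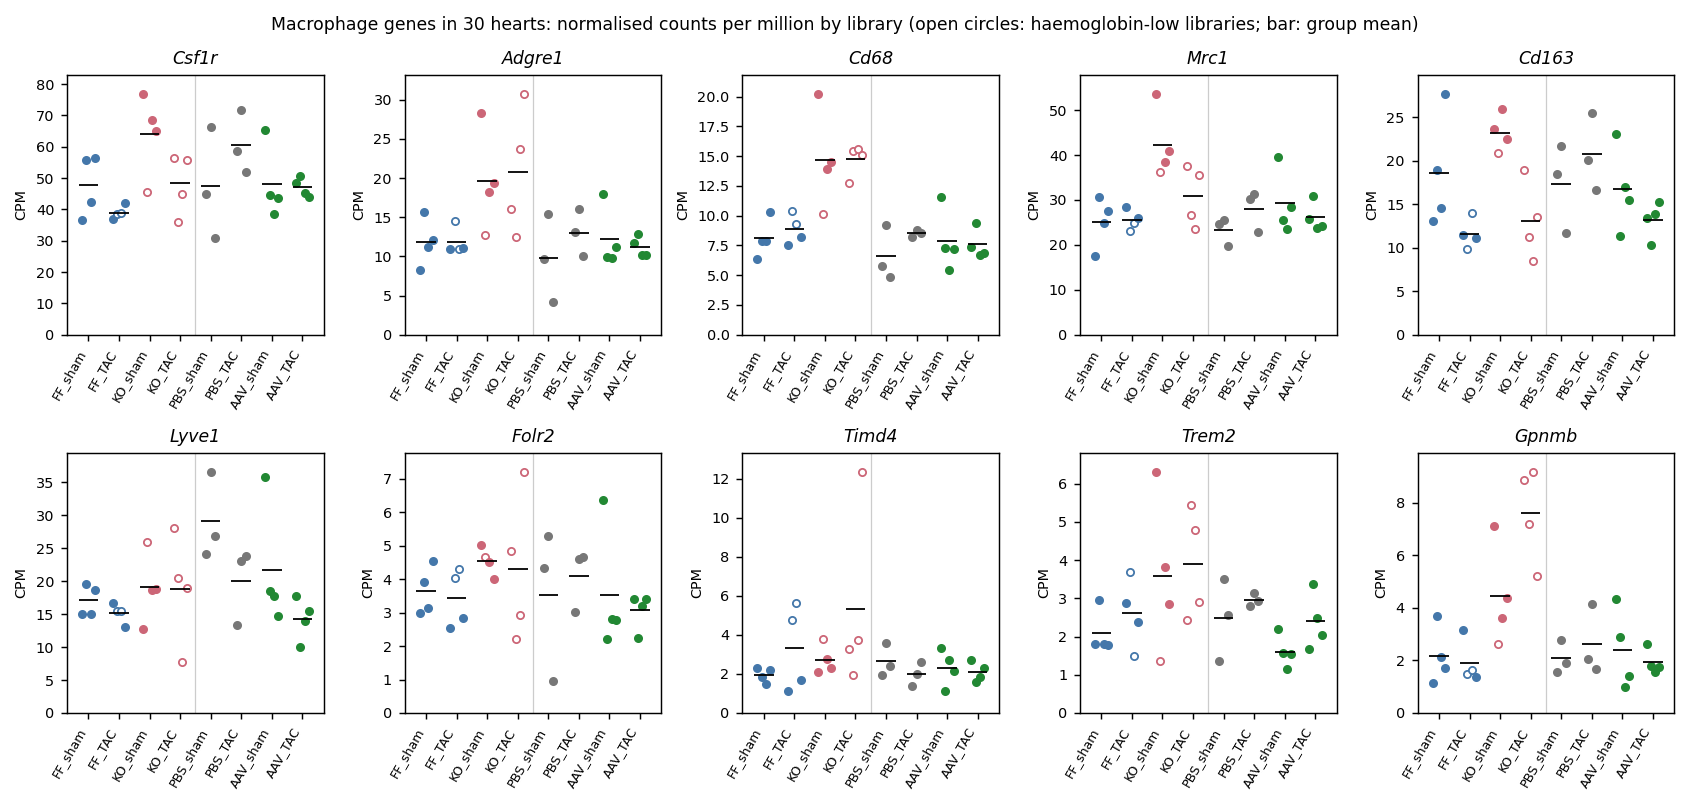
Levels of the 10 macrophage genes in each of the 30 libraries, as CPM with TMM scaling on axes that start at 0; each point is a library, the bar is the group mean, and open circles are the 7 haemoglobin-low libraries. Cd68 of the KO_TAC hearts (12.8 to 15.6 CPM) and Gpnmb (5.21 to 9.16 CPM) lie above every FF_TAC heart.

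After TAC, 2 of the 10 genes, Cd68 and Gpnmb, were called between knockout and floxed hearts, both higher in the knockouts. All 10 had a higher fitted level in KO_TAC than in FF_TAC, but for 4 of the 8 that were not called, Timd4, Folr2, Lyve1 and Cd163, an alternative turned the direction. Over all 15596 genes tested, 14.3% were called in this comparison, 7.53% higher and 6.80% lower, and 6.05% were higher with no overlap of the groups, as Cd68 and Gpnmb were. The median log2 fold change of the 10 genes was 0.48, against 0.04 over all genes tested.

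Gpnmb (ENSMUSG00000029816, chr6:49036546-49070929 on GRCm38) had the largest difference. Its 4 KO_TAC hearts had 8.88, 7.17, 9.16 and 5.21 CPM. Those of FF_TAC had 3.16, 1.47, 1.62 and 1.36 CPM. The lowest knockout heart was above the highest floxed one, and the log2 fold change was 2.03 (SE 0.38, adjusted p = 0.00359 by edgeR's quasi-likelihood test), a 4.08-fold difference. With a haemoglobin term it was 2.41 (adjusted p = 0.00592), and leaving out each library in turn gave 1.89 to 2.38, called every time. Without the libraries labelled FF_TAC 2, FF_TAC 3 and KO_sham 2 it was 1.78 (adjusted p = 0.0209). Set against only the haemoglobin-low libraries labelled FF_TAC 2 and FF_TAC 3, it was 2.29 and was not called (adjusted p = 0.170). Over all alternatives the adjusted p of Gpnmb ran from 8.19e-06 to 0.170.

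Cd68 (ENSMUSG00000018774, chr11:69664213-69666153 on GRCm38) was at 12.8, 15.4, 15.6 and 15.1 CPM in KO_TAC. In FF_TAC it was at 7.55, 10.4, 9.30 and 8.23 CPM. The log2 fold change was 0.76 (SE 0.19, adjusted p = 0.0154), with no overlap between the groups. It was 0.79 with the haemoglobin term (adjusted p = 0.0412) and 0.58 against only the haemoglobin-low pair labelled FF_TAC 2 and FF_TAC 3, where it was not called (adjusted p = 0.325) and neither was any gene tested. Without that pair and the library labelled KO_sham 2 it was 0.93 (adjusted p = 0.00817). The call was also lost without FF_TAC 1 (0.68, adjusted p = 0.0533) or without FF_TAC 4 (0.73, adjusted p = 0.0548), the adjusted p over all alternatives running from 0.00339 to 0.325.

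Adgre1 (ENSMUSG00000004730, chr17:57358691-57483527 on GRCm38) came next and missed the threshold. Its KO_TAC hearts had 16.1, 12.4, 23.7 and 30.7 CPM and its FF_TAC hearts 10.9, 14.5, 10.99 and 11.01 CPM, so that 1 knockout heart lay within the floxed range. The log2 fold change was 0.83 (SE 0.27, adjusted p = 0.0528). DESeq2, which called 2966 of 18572 genes, called Adgre1 (0.83, adjusted p = 0.0278), as did limma voom with sample weights (0.98, adjusted p = 0.00859), which called 38.5% of genes, and its adjusted p over all alternatives ran from 0.00859 to 0.550. For Csf1r the log2 fold change was 0.34 (SE 0.17, adjusted p = 0.187).

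The other 6 genes were not called between these groups. The log2 fold changes were 0.30 for Mrc1, 0.35 for Lyve1, 0.20 for Cd163, 0.35 for Folr2, 0.71 for Timd4 and 0.61 for Trem2, and the adjusted p of these 6 lay between 0.254 and 0.598. With the haemoglobin term the estimates were 0.26 for Timd4, 0.18 for Lyve1 and 0.18 for Folr2. Timd4 differed between the haemoglobin-low and other hearts of FF_TAC. It was at 4.78 and 5.62 CPM in the haemoglobin-low libraries labelled FF_TAC 2 and 3 but at 1.13 and 1.70 CPM in FF_TAC 1 and 4. In KO_TAC it was at 3.29, 1.94, 3.77 and 12.3 CPM, the last being the highest Timd4 level of all 30 hearts. Without KO_TAC 4 its log2 fold change was -0.10, and without the libraries labelled FF_TAC 2, FF_TAC 3 and KO_sham 2 it was 1.93 and was called (adjusted p = 0.0398, within a range of 0.0398 to 0.995 over all alternatives). Folr2 was likewise highest in KO_TAC 4, at 7.20 CPM against 2.22 to 4.84 in the other KO_TAC hearts, and without that heart its log2 fold change was -0.01. Lyve1 and Cd163 also turned direction under limma voom with sample weights, to -0.45 and -0.23, neither called.

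After sham surgery the knockouts showed the same direction without any call. All 10 genes were higher in KO_sham than in FF_sham, with a median log2 fold change of 0.60 against 0.004 over all genes tested. None of the 10 was called by edgeR, as none of the 15596 genes it tested was (0%). DESeq2 called none of the 10 either, and 1 gene in all. It gave an adjusted p for only 4792 genes, and a member without one could not be called. Limma voom with sample weights called Cd68 and Mrc1, with 0.192% of all genes. At an unadjusted p under 0.05 stood 5 of the 10, Adgre1, Csf1r, Cd68, Mrc1 and Gpnmb, against 5.22% of all genes tested. The adjusted p of the 10 lay between 0.798 and 0.9997.

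Mrc1 (ENSMUSG00000026712, chr2:14229392-14332057 on GRCm38) was the only 1 of the 10 with no overlap between the sham groups, a state shared in the same direction by 3.26% of all genes tested. It was at 53.6, 36.2, 38.4 and 40.8 CPM in KO_sham and at 17.6, 30.6, 24.9 and 27.4 CPM in FF_sham (log2 fold change 0.75, SE 0.18, adjusted p = 0.798). Cd68 was at 20.2, 10.2, 13.9 and 14.5 CPM in KO_sham and at 6.38, 7.90, 7.83 and 10.3 CPM in FF_sham (0.85, SE 0.19, adjusted p = 0.798). Gpnmb was at 7.11, 2.64, 3.61 and 4.37 CPM against 1.13, 3.70, 2.15 and 1.70 CPM (1.02, SE 0.38, adjusted p = 0.900). For 7 of the 10 genes, Adgre1, Csf1r, Cd68, Mrc1, Cd163, Trem2 and Gpnmb, the lowest KO_sham heart was the one labelled KO_sham 2, whose Cpt1a was the highest of that group, and it was the highest for Lyve1 and Timd4. In the haemoglobin-high libraries alone, which leave that heart out, the log2 fold changes were 0.89 for Adgre1, 0.55 for Csf1r, 0.99 for Cd68, 0.81 for Mrc1, 1.05 for Trem2 and 1.20 for Gpnmb, and none was called. Lyve1 was at -0.04 there, against 0.15 with all libraries. The heart KO_sham 1 was the highest of all 30 for Csf1r, Cd68, Mrc1 and Trem2. Without it, Trem2 was at 0.35 and Gpnmb at 0.70.

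**Figure D2:**
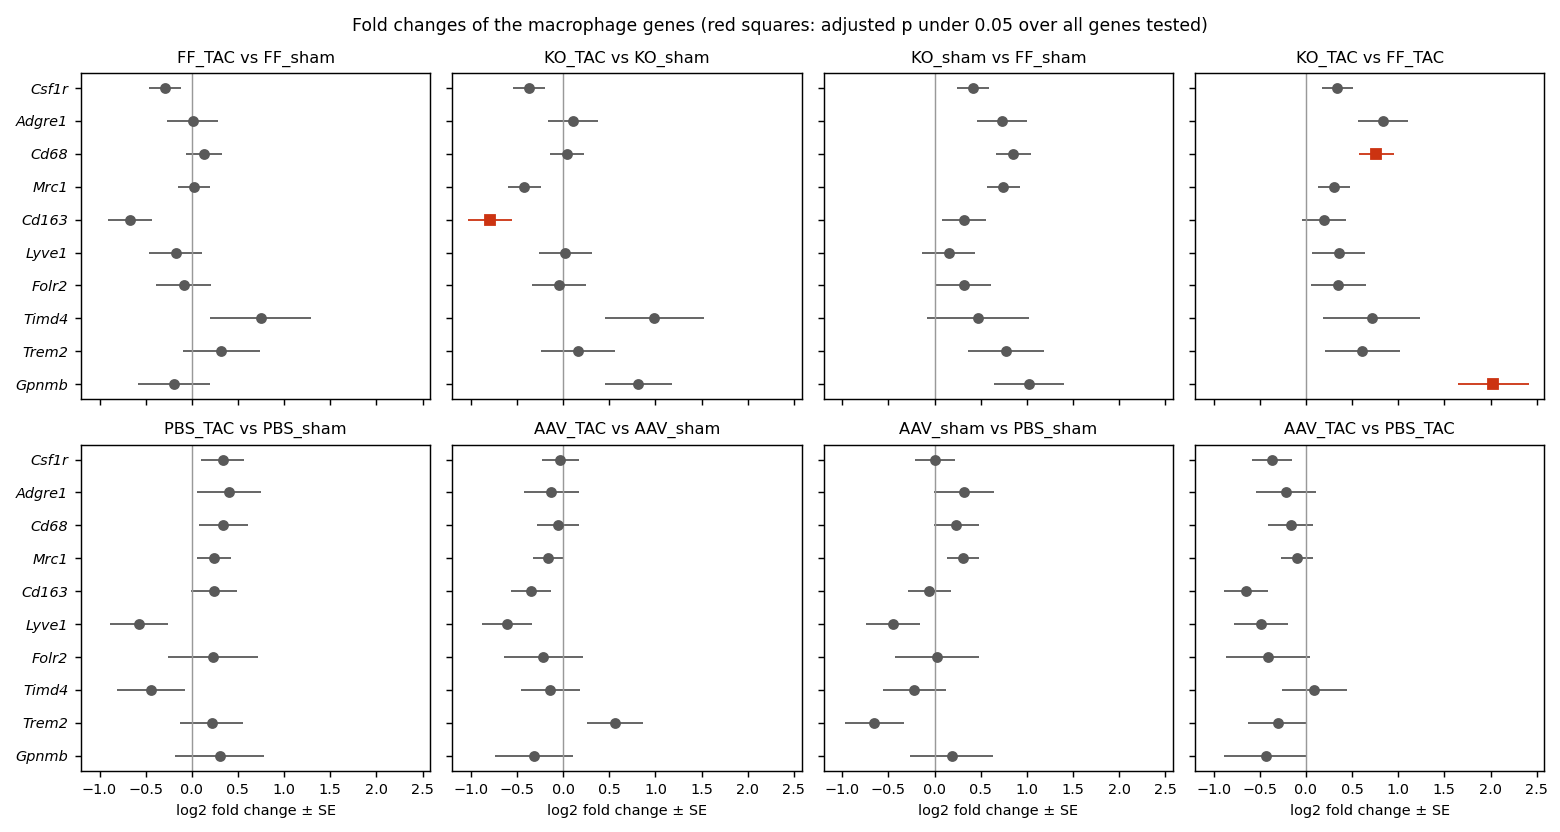
Log2 fold changes of the 10 genes with their standard errors in the 8 comparisons between pairs of groups; red squares mark an adjusted p under 0.05 over all genes tested. In both comparisons of knockout with floxed hearts (KO_sham vs FF_sham and KO_TAC vs FF_TAC) the 10 estimates lie right of 0, and the 3 calls are Gpnmb and Cd68 in KO_TAC vs FF_TAC and Cd163 in KO_TAC vs KO_sham.

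Few of these genes passed the test between TAC and sham hearts. In floxed hearts, 0 of the 10 were called between FF_TAC and FF_sham by edgeR, DESeq2 or limma voom, 0% of all genes tested being called by edgeR, and 5 of the 10 estimates were higher. Only Cd163 had an unadjusted p under 0.05, against 11.1% of all genes tested. Timd4 was at 0.75 there, and at -0.48 without the libraries labelled FF_TAC 2, FF_TAC 3 and KO_sham 2. In knockout hearts, where 25.8% of all genes tested were called (14.3% higher and 11.5% lower), 1 of the 10 was.

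The call was a fall of Cd163 (ENSMUSG00000008845, chr6:124304656-124330527 on GRCm38). Its KO_sham hearts had 23.6, 20.8, 25.9 and 22.5 CPM and its KO_TAC hearts 19.0, 11.3, 8.43 and 13.5 CPM, every TAC heart below every sham heart (13.2% of all genes tested were lower with no overlap). The log2 fold change was -0.79 (SE 0.24, adjusted p = 0.0255). In floxed hearts Cd163 was at 13.01, 18.9, 14.6 and 27.7 CPM after sham and at 11.5, 9.87, 13.98 and 11.1 CPM after TAC (-0.67, SE 0.24, adjusted p = 0.358), and there 1 TAC heart lay within the sham range. The 2 TAC effects differed by -0.12 (SE 0.34, interaction adjusted p = 0.895). With the haemoglobin term the size in knockouts was -0.77 and the call was lost (adjusted p = 0.194). The call was also lost, at adjusted p between 0.0508 and 0.0813, without KO_sham 1, KO_sham 3, KO_TAC 2 or KO_TAC 3, and over all alternatives the adjusted p ran from 5.68e-04 to 0.194.

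The other 9 genes were not called in knockouts under load. Csf1r was at 76.9, 45.5, 68.6 and 64.97 CPM in KO_sham and at 56.5, 36.0, 44.8 and 55.8 CPM in KO_TAC (log2 fold change -0.37, SE 0.17, adjusted p = 0.114), and a haemoglobin term took the estimate to -0.17. Mrc1 was at 37.5, 26.6, 23.6 and 35.5 CPM in KO_TAC, against the higher KO_sham values above (-0.42, SE 0.18, adjusted p = 0.0872), and at -0.26 with the term. Gpnmb was at 0.82 (SE 0.36, adjusted p = 0.105), and at 1.38 with the term. Limma voom with sample weights, which called 53.4% of all genes here, called these 3, Cd163 and Lyve1. Timd4 had the largest estimate, 0.99 (SE 0.53, adjusted p = 0.173), with 3.29, 1.94, 3.77 and 12.3 CPM in KO_TAC against 2.08, 3.80, 2.75 and 2.32 CPM in KO_sham. It was 0.17 without KO_TAC 4 and -0.04 with the haemoglobin term, so that 1 heart set its size. Lyve1 was at 28.1, 20.5, 7.76 and 19.0 CPM in KO_TAC and at 12.8, 26.0, 18.7 and 18.8 CPM in KO_sham, with KO_TAC 3 the lowest of all 30 hearts. Its log2 fold change was 0.02 by edgeR and -0.72 by limma voom (adjusted p = 0.0334), which weights libraries unequally. With the term Lyve1 was at -0.21. Adgre1 was at 0.11 (0.25 with the term), Cd68 at 0.04 (0.10), Trem2 at 0.16 (0.71) and Folr2 at -0.05 (-0.36).

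Whether TAC acted differently in knockout and floxed hearts was tested by the interaction. None of the 10 genes was called by edgeR or DESeq2, which called 0.0449% and 2.50% of the genes they tested. By edgeR none had an unadjusted p under 0.05, as 13.1% of all genes tested did. The largest estimate was that of Gpnmb, whose TAC effect was 1.005 higher on the log2 scale in knockouts (SE 0.53, adjusted p = 0.433). It was 0.61 without FF_sham 2 and 0.58 without the libraries labelled FF_TAC 2, FF_TAC 3 and KO_sham 2. That of Mrc1 was -0.44 (SE 0.25, adjusted p = 0.455), and limma voom called it at -0.74 (adjusted p = 0.0443), with 18.8% of all genes.

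In the AAV9 cohort, in which Cpt1a was supplied to the heart instead of removed, no macrophage gene was called. The shares of genes called that are given next are those of edgeR. In the same comparisons DESeq2 called 0.108 to 1.99% and limma voom 0.0826 to 2.33% of genes. None of the 10 passed between PBS_TAC and PBS_sham (0.0318% of 15745 genes tested were called), AAV_TAC and AAV_sham (0.00635%), AAV_sham and PBS_sham (0.0127%), AAV_TAC and PBS_TAC (0.0381%) or in the interaction (0.00635%), by edgeR, DESeq2 or limma voom. An unadjusted p under 0.05 was reached by 1 of the 10 between AAV_TAC and AAV_sham (Lyve1; 7.05% of genes tested), by 1 between AAV_TAC and PBS_TAC (Cd163; 3.19%) and by 0 in the others (18.5% of genes tested for PBS_TAC and PBS_sham, 20.7% for AAV_sham and PBS_sham, 6.95% for the interaction). Cpt1a was at 69.9 ± 13.4 CPM in AAV_sham (SD, n = 4) and 49.7 ± 12.4 CPM in PBS_sham (SD, n = 3), and at 53.9 ± 7.67 CPM in AAV_TAC (SD, n = 4) and 52.2 ± 10.9 CPM in PBS_TAC (SD, n = 3). By edgeR Cpt1a itself was not called between AAV_sham and PBS_sham (log2 fold change 0.45, adjusted p = 0.248). Nor was it between AAV_TAC and PBS_TAC (0.05, adjusted p = 0.99999).

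Lyve1 (ENSMUSG00000030787, chr7:110850607-110863239 on GRCm38), the hyaluronan receptor of resident macrophages and lymphatic vessels, was lower after TAC with either injection in this cohort, without passing the test. After saline it was at 24.1, 36.6 and 26.9 CPM with sham and at 13.4, 23.0 and 23.9 CPM with TAC, with no overlap (6.28% of genes tested were lower with no overlap). The log2 fold change was -0.57 (SE 0.31, adjusted p = 0.326), and -0.35 without PBS_TAC 1. With the vector it was at 35.8, 18.6, 17.7 and 14.7 CPM after sham and 17.7, 10.1, 13.97 and 15.5 CPM after TAC, groups that overlap (-0.61, SE 0.27, adjusted p = 0.683), and without AAV_sham 1, the highest of these hearts, the estimate was -0.26. In the floxed cohort the TAC estimates of Lyve1 were -0.18 in floxed and 0.02 in knockout hearts.

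Csf1r and Cd163 were lower in AAV_TAC than in PBS_TAC with no overlap, as were 4.36% of genes tested. Cd163 was at 13.4, 10.3, 13.8 and 15.2 CPM with the vector and 20.0, 25.5 and 16.7 CPM with saline (-0.65, SE 0.23, adjusted p = 0.99999). Csf1r was at 48.4, 50.8, 45.4 and 43.9 CPM with the vector and 58.5, 71.6 and 52.0 CPM with saline (-0.36, SE 0.21, adjusted p = 0.99999). PBS_sham 3 was the lowest of all 30 hearts for Csf1r, Adgre1, Cd68 and Folr2, at 31.0, 4.20, 4.86 and 0.942 CPM. Without it, the estimate for PBS_TAC against PBS_sham was 0.05 in place of 0.41 for Adgre1, 0.13 in place of 0.33 for Csf1r and -0.23 in place of 0.23 for Folr2.

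Setting each gene against Csf1r within a library takes out a change in macrophage content common to both. On the log2 scale of CPM with 0.5 added, Gpnmb relative to Csf1r was at -2.60 ± 0.50 in KO_TAC and -4.09 ± 0.51 in FF_TAC, and after sham surgery at -3.76 ± 0.31 in knockouts and -4.24 ± 0.44 in floxed hearts (SD, n = 4). It was higher in KO_TAC than in FF_TAC by 1.496, and than in KO_sham by 1.16, with no overlap in either (exact permutation test, two-sided, p = 0.0286 for each, the smallest that 4 against 4 allows; adjusted p = 0.343 over 72 such tests). The 2 differences share the KO_TAC hearts. Cd68 relative to Csf1r was higher in FF_TAC than in FF_sham by 0.40 and in KO_sham than in FF_sham by 0.38, again with no overlap (exact permutation p = 0.0286, adjusted p = 0.343 for both). Mrc1 relative to Csf1r was higher by 0.32 in FF_TAC than in FF_sham and by 0.26 in AAV_TAC than in PBS_TAC, with no overlap in either comparison. In FF_TAC against FF_sham the fitted log2 fold change was -0.29 for Csf1r itself, 0.02 for Mrc1 and 0.13 for Cd68. In AAV_TAC against PBS_TAC it was -0.36 for Csf1r and -0.10 for Mrc1, so a lower Csf1r is part of these higher ratios. The share of all genes with no overlap relative to Csf1r was not computed. Lyve1 relative to Csf1r was lower in PBS_TAC than in PBS_sham by 0.96, where 3 against 3 cannot go below an exact permutation p of 0.1. Of the 72 ratios, 0 passed after adjustment, for which at least 42 would have had to reach a p of 0.0286, and 6 did.

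**Figure D3:**
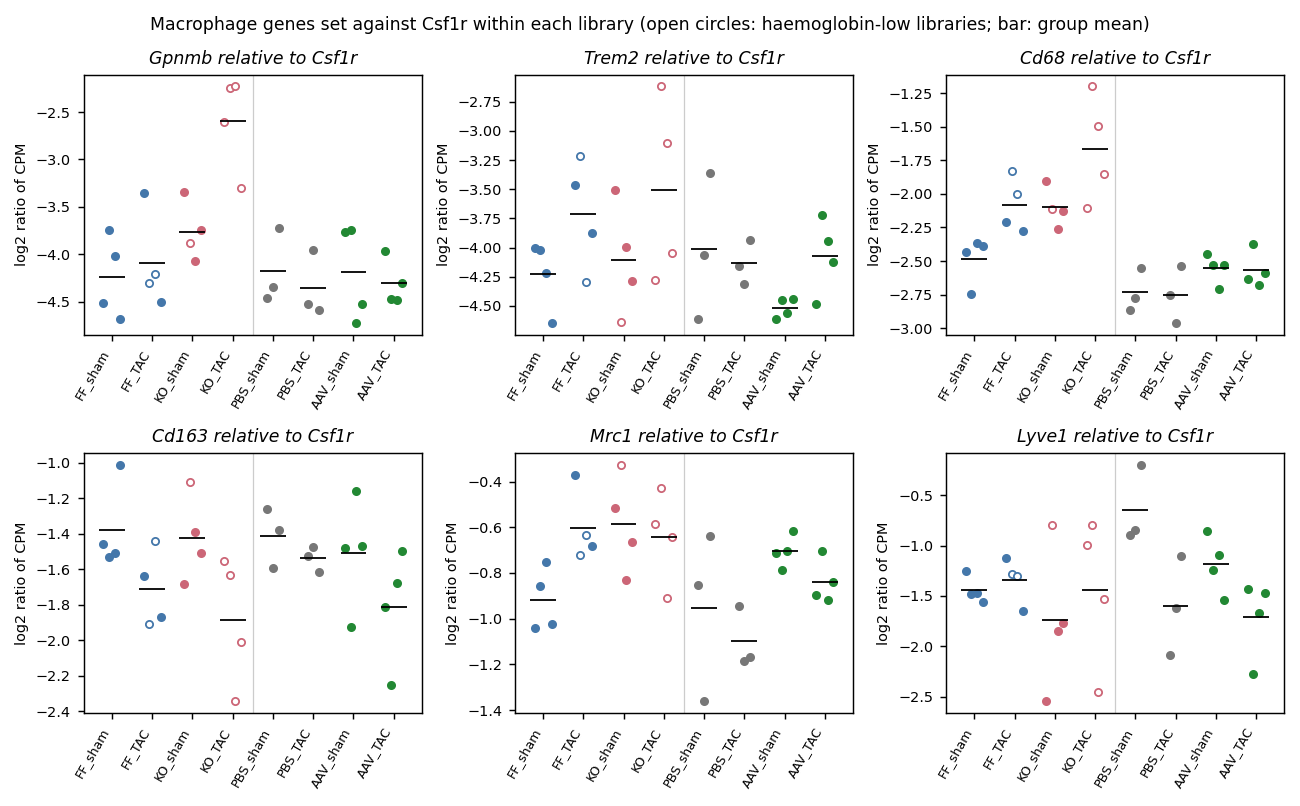
Level of 6 genes relative to Csf1r in each library, as the log2 ratio of CPM with 0.5 added; each point is a library, the bar is the group mean, and open circles are haemoglobin-low libraries. The 4 KO_TAC hearts hold the highest Gpnmb ratios of the floxed cohort, -3.30 to -2.23, and no FF_TAC heart is above -3.35.

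The 10 genes did not vary as 1 block between hearts of the same group. Pearson's r of log2 CPM after subtracting group means is given for the floxed cohort (16 libraries) and the AAV9 cohort (14 libraries), as a description. The libraries of a group share no pairing, and the haemoglobin split lies inside FF_TAC and KO_sham. Adgre1 and Csf1r had r of 0.74 and 0.97, Csf1r and Mrc1 0.78 and 0.82, and Timd4 and Folr2, both markers of resident cells, 0.80 and 0.55. Trem2 and Gpnmb had 0.57 and 0.45. Lyve1 stood off from Csf1r in the floxed cohort at -0.02 but not in the AAV9 cohort at 0.50, and Timd4 and Gpnmb were at -0.53 and 0.16.

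**Figure D4:**
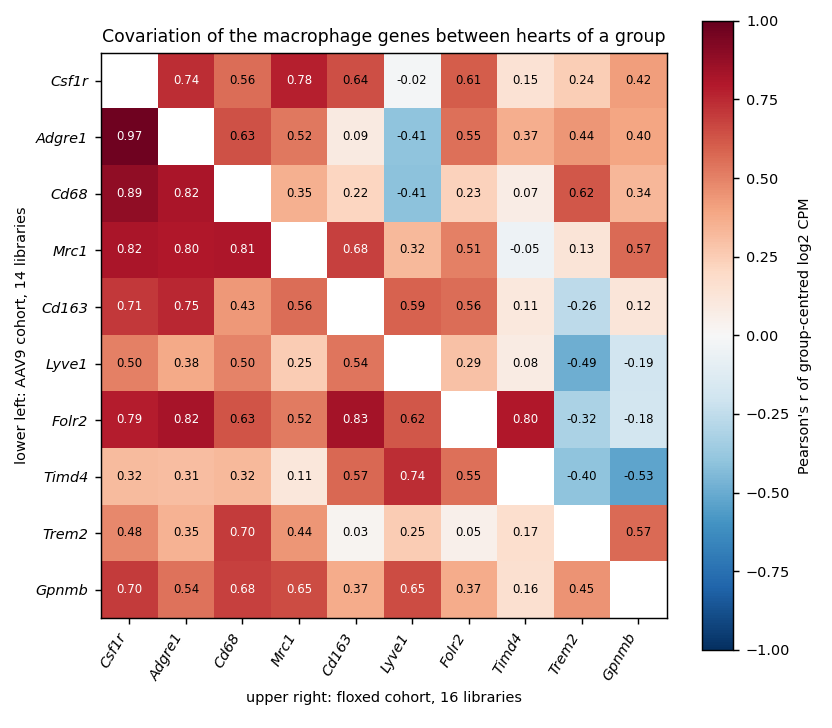
Pearson's r between every 2 of the 10 genes, on log2 CPM with group means subtracted; the upper right triangle is the floxed cohort (16 libraries) and the lower left the AAV9 cohort (14 libraries). Csf1r with Adgre1 is at 0.74 and 0.97, whereas Lyve1 with Csf1r is at -0.02 and 0.50.

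The genes whose level followed a member most closely in both cohorts, ranked by the lower of the 2 r among genes of at least 5 CPM, are named for 4 members. For Csf1r they were Itgb2, the shared chain of leukocyte integrins (r = 0.89 and 0.85 in the floxed and AAV9 cohorts), Sirpa (0.80 and 0.91), Lyz2, lysozyme (0.80 and 0.94), Eps15 and Fchsd2. For Trem2 they were its signalling adaptor Tyrobp (0.93 and 0.74), Pcolce, Skap2, Loxl1 and Fermt3. For Gpnmb they were the complement genes C4b (0.76 and 0.80) and C3 (0.71 and 0.72), with Tmem176b, Tmem176a and G6pdx. For Lyve1 they were Kcnk6 (0.74 and 0.82), Smad7, Gas1, Thbd, the thrombomodulin of endothelium, and Dyrk2, none of which is in the macrophage lists used here.

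Genes of other macrophage lists, which leave out the 10, were called higher in the same comparison as Cd68 and Gpnmb. The lipid-associated and lysosomal list summed to 6026 to 15345.5 CPM in KO_TAC and 8815.5 to 12078 CPM in FF_TAC. The pan-macrophage list summed to 513 to 650 CPM in KO_TAC and 304 to 380 CPM in FF_TAC. Which cells carried the transcripts of these lists was not tested. Between KO_TAC and FF_TAC, 8 of 14 pan-macrophage genes were called higher and 0 lower, where 7.53% of all genes tested were called higher and 6.80% lower (median log2 fold change 0.79, against 0.04 over all genes tested). The 4 largest were Cd14, a lipopolysaccharide co-receptor (1.73), Fcer1g, an Fc receptor chain (1.28), Ctss, a lysosomal protease (1.09), and Ptprc, the leukocyte antigen CD45 (1.02), and their adjusted p lay between 0.0163 and 0.0404. The count fell to 3 without FF_TAC 1, FF_TAC 4 or KO_TAC 3, fits that called 8.65%, 7.08% and 7.59% of all genes. It was 7 without the libraries labelled FF_TAC 2, FF_TAC 3 and KO_sham 2, where 22.4% of all genes were called. Of 11 lipid-associated and lysosomal genes tested, 6 were called higher and 0 lower, and 4 without FF_TAC 4. Lgals3, galectin-3, was at 59.4 ± 29.1 CPM in KO_TAC against 5.13 ± 1.84 in FF_TAC (SD, n = 4), a log2 fold change of 3.57. Spp1, osteopontin, was at 6.68 ± 4.43 against 0.322 ± 0.214 CPM (4.38), Apoe at 852 ± 267 against 365 ± 107 CPM (1.26) and the tetraspanin Cd9 at 70.7 ± 8.99 against 34.6 ± 8.14 CPM (1.06). Of these lists, 7 of the 8 pan-macrophage calls and 5 of the 6 lipid-associated calls were kept with the haemoglobin term. Under that term 7.23% of all genes were called. Against only the haemoglobin-low pair labelled FF_TAC 2 and FF_TAC 3, 0 genes of either list were called, as 0 of all genes were.

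Resident-associated and monocyte genes were set against the same shares, 7.53% of all genes called higher and 6.80% lower. Of 10 resident-associated genes 3 were called higher and 0 lower, Cbr2 (1.44), Igf1, insulin-like growth factor 1 (0.82), and Gas6, the ligand of the clearance receptor Mertk (0.36), of which 1, Igf1, was kept with the haemoglobin term. Cbr2, at 137, 21.9, 23.1 and 28.8 CPM in KO_TAC and 17.0 to 21.7 CPM in FF_TAC, owed its size to KO_TAC 1, without which it was at 0.34 and not called (adjusted p = 0.109, within 0.0251 to 0.638 over its alternatives). The count of resident-associated calls was 0 without FF_TAC 3 or FF_TAC 4. Of 8 monocyte and recruited macrophage genes tested, Vcan (1.26) and the integrin Itgam (0.95) were called higher, both kept with that term, and 0 were called lower (median log2 fold change 1.36). There was 1 call without FF_TAC 1 or KO_TAC 3, where 8.65% and 7.59% of all genes were called. Without the libraries labelled FF_TAC 2, FF_TAC 3 and KO_sham 2 there were 4 calls, with 22.4% of all genes called. Ccr2, the chemokine receptor of recruited monocytes, was not called there (-0.75, adjusted p = 0.531) but fell in KO_TAC against KO_sham, from 9.85 ± 6.19 to 1.27 ± 1.16 CPM (SD, n = 4), a log2 fold change of -2.88 (adjusted p = 0.0154). Ccr2 moved with the haemoglobin split, at 0.506 to 2.99 CPM in the 7 haemoglobin-low libraries and 1.19 to 16.9 CPM in the other 9 of that cohort, and with the haemoglobin term its estimate was -1.03 (adjusted p = 0.487).

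Between KO_TAC and KO_sham, where 14.3% of all genes tested were called higher and 11.5% lower, the other lists gave 1 pan-macrophage call of 14 (Cd14 higher, 2.52), 0 of 10 resident-associated genes, 5 of 11 lipid-associated and lysosomal genes higher and 0 lower, and 2 of 8 monocyte genes higher (Thbs1 at 2.86 and Vcan at 1.51) with Ccr2 lower. The lipid-associated genes led by Lgals3 (2.01), Cd9 (1.04), Cd63 (0.95) and Ctsd, cathepsin D (0.88), were called at adjusted p between 8.64e-04 and 0.0201. With the haemoglobin term, under which 1.75% of all genes were called, only Cd9 of these lists kept its call. Without KO_TAC 1 there were 4 pan-macrophage genes called higher and 1 lower, with 1 resident-associated gene higher and 3 lower. That fit called 40.8% of all genes. Without KO_TAC 3, where 12.3% of all genes were called, there were 2 lipid-associated calls. Between KO_sham and FF_sham all 14 pan-macrophage genes were higher, with a median log2 fold change of 0.79, but 0 were called. In the other floxed comparison of TAC with sham, FF_TAC against FF_sham, and throughout the AAV9 cohort, 0 genes of these 5 lists were called.

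**Figure D5:**
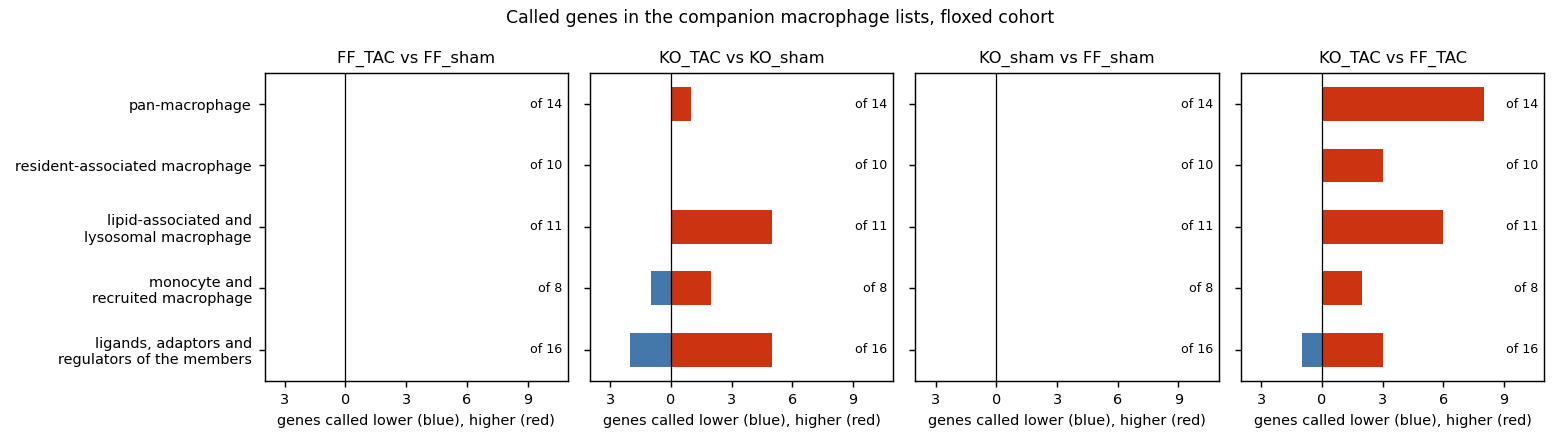
Number of genes called higher (red, to the right) or lower (blue, to the left) at an adjusted p under 0.05 in 5 lists of companion macrophage genes, in the floxed cohort; the figure at the right of each bar is the number tested. KO_TAC vs FF_TAC gives 8 of 14 pan-macrophage and 6 of 11 lipid-associated genes higher, and FF_TAC vs FF_sham and KO_sham vs FF_sham give none.

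Of the ligands of Csf1r, Csf1 was called and Il34 was not. Csf1 was at 204 to 952 CPM in KO_TAC and 52.4 to 93.5 CPM in KO_sham (log2 fold change 3.05, adjusted p = 0.00855). It was at 57.8, 453, 717 and 68.5 CPM in FF_TAC, where the high hearts are the haemoglobin-low pair labelled FF_TAC 2 and 3. Over the floxed cohort, Csf1 was at 93.5 to 952 CPM in the 7 haemoglobin-low libraries and 50.03 to 103 CPM in the other 9, and with the haemoglobin term its estimate was 1.21 (adjusted p = 0.366). Il34, the second ligand, was at 3.49 to 6.78 CPM in KO_TAC and 3.35 to 3.77 CPM in KO_sham and was not called (0.52, adjusted p = 0.0738). Tyrobp, the adaptor of Trem2, had a log2 fold change of 0.80 between KO_TAC and FF_TAC (adjusted p = 0.0610). Of the 16 ligands, adaptors and regulators tested, 3 were called higher in KO_TAC against FF_TAC, namely Hmox1, the haem-degrading enzyme (1.74), Spi1, which encodes PU.1 (1.52), and the kinase Syk (0.70). Mitf, the transcription factor that binds the M-box, was called lower (-0.48). Over all genes tested, 7.53% were called higher and 6.80% lower. Without the libraries labelled FF_TAC 2, FF_TAC 3 and KO_sham 2 there were 7 calls higher and 1 lower, with 22.4% of all genes called. Spi1, Hmox1 and Syk kept their calls with the haemoglobin term. Against KO_sham, 5 of the 16 were called higher and 2 lower, where 14.3% of all genes tested were called higher and 11.5% lower. The 4 largest were Csf1, Hmox1 (1.38), Spi1 (1.29) and Plcg2 (0.83), and none of the 7 kept its call with the haemoglobin term.

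Markers of other cells were read beside these values. The genes of other cell types named here, apart from Prox1, Flt4 and Mmrn1, were chosen after their values were seen. Over all genes tested, 14.3% were called higher and 11.5% lower in KO_TAC against KO_sham. Against FF_TAC, 7.53% were called higher and 6.80% lower. Of 5 genes of lymphatic endothelium tested, a tissue that also carries Lyve1, Prox1 was called lower in KO_TAC than in KO_sham (-0.70, adjusted p = 0.00548) and than in FF_TAC (-0.51, adjusted p = 0.0309), and Pdpn, podoplanin, higher (1.51 and 1.30, adjusted p = 0.00428 and 0.0108). With the haemoglobin term neither kept a call, at -0.50 and -0.37 for Prox1 and 1.22 and 1.14 for Pdpn. Prox1 also lost its call against FF_TAC without FF_TAC 1, FF_TAC 4 or any 1 of KO_TAC 2, 3 and 4. Flt4 (-0.15 and -0.48) and Mmrn1 (-0.56 and -0.62) were not called in either. The summed level of the 6 lymphatic markers was 64.99 to 107 CPM in KO_TAC, 93.9 to 114.5 CPM in KO_sham and 84.8 to 138 CPM in FF_TAC, with 1 marker at 0 in all hearts of KO_sham and of FF_TAC. Of 5 blood endothelium genes, 3 were called lower and 0 higher in KO_TAC against both groups, namely Kdr, a receptor for VEGF (-1.30 against KO_sham and -1.35 against FF_TAC), Cdh5, VE-cadherin (-0.56 and -0.69), and Tie1 (-0.33 and -0.50). Their list summed to 441 to 635 CPM in KO_TAC, 625 to 825 CPM in KO_sham and 670 to 903 CPM in FF_TAC. With the haemoglobin term Tie1 and Kdr kept their calls against FF_TAC, and none did against KO_sham. Against KO_sham 1 call was left without any 1 of KO_sham 2, 3 and 4 and KO_TAC 2 and 3. Those fits called 12.3 to 20.0% of all genes. Fibroblast markers were higher in KO_TAC, their 5 genes summing to 1622 to 1798 CPM against 902 to 983 CPM in FF_TAC and 993 to 1497 CPM in KO_sham, with 2 of 5, Col1a1 and Dcn, called higher in each comparison (0.80 and 0.76 against KO_sham, 1.03 and 0.86 against FF_TAC). With the term both kept their calls against FF_TAC, and Col1a1 did against KO_sham. The 6 dendritic cell genes summed to 25.8 to 56.3 CPM in KO_TAC and 23.8 to 34.5 CPM in FF_TAC. Of the 5 tested between these groups, 4 had higher estimates in KO_TAC, but the only 1 called was lower. Against KO_sham 1 was called higher and 1 lower, and 1 of the 5 had a higher estimate. None of these calls was kept with the haemoglobin term. Summed over their lists, 6 neutrophil genes were at 1.41 to 6.41 CPM in FF_TAC and KO_TAC hearts, 7 T and NK cell genes at 1.06 to 4.99 CPM and 4 B cell genes at 0.182 to 19.5 CPM, all small beside the pan-macrophage sum of 304 to 650 CPM in the same hearts. Of the neutrophil genes, 1 was at 0 in all KO_TAC hearts and only 2 passed the filter on low counts. Of these 2, Csf3r was called higher in KO_TAC than in FF_TAC, and the other had a lower estimate and was not called. Mitochondrial transcripts took 12.1 to 18.7% of counts in KO_TAC, 20.9 to 22.6% in FF_TAC and 21.6 to 24.4% in KO_sham. The part of fibroblast, endothelial, dendritic cell or mitochondrial content in the differences of the 10 genes was not tested.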

How the data were processed

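The submitters' processing notes name HISAT2 2.1.0, featureCounts (Subread 1.5.1) and build GRCm38. The deposited values are whole-number counts per gene and library, and the labels describe a stranded poly(A) kit and paired 100-base reads with RNA integrity above 7. Symbols came from GENCODE M21, of the same build, for 55141 of 55487 identifiers. Promoter sequences are from RefSeq on GRCm38.p6.

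Each cohort was fitted alone with edgeR 4.0.16 (R 4.3.3): TMM, filterByExpr, quasi-likelihood F test, 1 mean per group, Benjamini-Hochberg adjustment over all genes tested, called at 0.05. Levels are CPM with TMM over all 30 libraries. Fold changes come from the fits. Ratios to Csf1r were tested by exact permutation. Alternatives were DESeq2 1.42.0, limma 3.58.1 voom, RLE factors, no filter, a replicate block, only the groups compared, a term or split for haemoglobin under 100 CPM, and each library left out. The members, gene lists and tests were chosen with earlier results of these data known. All 10 members are named. From each macrophage list the called genes are named, at most the 4 with the largest change, with Csf1, Il34, Tyrobp, Ccr2, Prox1, Flt4 and Mmrn1 in any case. No library was a duplicate of another of its group: chi-square per degree of freedom was at least 6.29 in 42 pairs. Pairs of libraries from different groups were not checked. Replicate numbers did not pair the samples. The microRNA samples of the design were not analysed here.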

Additional observations from a re-analysis of the deposited data

Results flagged for a closer look

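In 4 of 60 groups of 4 libraries, 1 heart lay far from the other 3 for a gene, at a criterion that chance alone meets in about 1 group in 20. Adgre1 was at 14.5 CPM in FF_TAC 2 against 10.93 to 11.01 CPM in the other FF_TAC hearts. Gpnmb was at 3.16 CPM in FF_TAC 1 against 1.36 to 1.62 CPM. Trem2 was at 2.97 CPM in FF_sham 2 against 1.77 to 1.81 CPM. Folr2 was at 6.36 CPM in AAV_sham 1 against 2.21 to 2.81 CPM. Leaving out FF_TAC 1, which narrows the spread of Gpnmb, gave its largest fold change among the fits that omit 1 library, 2.38 between KO_TAC and FF_TAC. The cause of these values was not tested.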

How the results depend on the processing

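Of the values of single genes under the alternatives, 2098 kept their direction and side of the threshold or moved within their error, 27 moved, 17 passed the threshold, 9 missed it and 1 reversed. Lyve1 between KO_TAC and KO_sham was at -0.72 under limma voom with sample weights. For KO_TAC against KO_sham, where 1 member was called, limma voom called 5 (53.4% of all genes) and the haemoglobin term 0 (1.75%). Leaving out a library gave 0 to 2 there (12.3 to 40.8% of all genes). For KO_TAC against FF_TAC, with 2 called, leaving out a library gave 1 to 2 (7.08 to 24.3% of all genes). The haemoglobin-low libraries alone gave 0 (0% of all genes). That last fit also holds fewer libraries, and the cause was not tested. Limma voom called 2 in KO_sham against FF_sham (0.192% of all genes) and 1 in the interaction of knockout and TAC (18.8%), where the main count was 0. In AAV_sham against PBS_sham, leaving out PBS_sham 1 called Trem2 lower (-0.94, adjusted p = 0.0454), with 17.4% of all genes called in that fit. The counts of this comparison therefore ran from 0 to 1. Added after seeing the data, leaving out the libraries labelled FF_TAC 2, FF_TAC 3 and KO_sham 2 together called 3 in KO_TAC against FF_TAC (22.4% of all genes) and 1 in KO_TAC against KO_sham (23.4%). The ratios to Csf1r cannot show stability, since at least 42 of 72 would need the smallest p of 4 against 4 for any to pass.

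Same-numbered libraries did not deviate together: over 29 pairs the correlation ran from -0.58 to 0.47, and in 0 comparisons were all pairs above 0.1. With the replicate block, 1 member was called in KO_TAC against KO_sham, 2 in KO_TAC against FF_TAC and 0 elsewhere, as without it. Timd4, Trem2 and Gpnmb rest on fewest counts.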
